A study of Homo sapiens with 6 samples.

Results

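Alcohol dehydrogenases, aldehyde dehydrogenases and aldo-keto reductases were examined in Hep3B cells, a human hepatocellular carcinoma line, by RNA-seq of 3 control libraries and 3 libraries labelled PELP1-KD. PELP1 is a scaffold and coregulator protein of nuclear receptor and ribosome assembly complexes. The members are the genes whose symbols carry the ADH (numbers 1 to 7 or ADHFE1), ALDH (number, letter, number) or AKR (families 1 to 7) pattern, a rule that uses the symbol alone. They came to 38 of the 23228 genes counted, of which 8 are alcohol dehydrogenases, 18 aldehyde dehydrogenases and 12 aldo-keto reductases. ALDH2, whose symbol lacks the second letter and number, falls outside the pattern and is given beside the members. Control cells carried a non-targeted shRNA and PELP1-KD cells an shRNA against PELP1, both delivered by lentivirus. The knockdown cells were selected with puromycin and used as a pool of stable clones, grown in RPMI. The labels describe virus for 2 PELP1 shRNAs, whereas the titles of the knockdown libraries name only PELPsh1. Nothing in the labels ties the 3 libraries of a group to separate cultures, so p-values measure only the spread between these libraries, which may be technical.

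These enzymes pass electrons between alcohols, carbonyl compounds and nicotinamide cofactors. Alcohol dehydrogenases turn alcohols such as ethanol and retinol into aldehydes or ketones, aldehyde dehydrogenases carry aldehydes on to acids, and aldo-keto reductases run mainly in the other direction, from carbonyl to alcohol. In hepatocytes they clear ethanol, make retinoic acid, break down amino acids and reduce steroids and bile acid precursors, and the liver forms of alcohol dehydrogenase are among the genes known to mark mature hepatocytes.

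The libraries held 26758363 to 34456542 reads on genes. For PELP1 itself the reads were 5338, 5127 and 5348 in control and 4318, 4135 and 4846 in PELP1-KD, a log2 fold change of -0.08 (SE 0.04, edgeR adjusted p = 0.101). It passed only with the replicate number as a block (adjusted p = 0.0106) or without PELP1-KD replicate 3 (-0.10, adjusted p = 0.018). After scaling to library size the PELP1-KD mean was 94.5% of the control mean, with every PELP1-KD library below every control library. The RNA of the targeted gene thus does not by itself show a knockdown, and the groups are called here by their labels. The study reports lower PELP1 protein in its Hep3B knockdown cells by Western blot, which RNA counts do not measure. Of the 9 hepatocyte and Hep3B markers, all were read in every library, 6 were lower and 3 higher. Over all genes tested with edgeR, 26.8% were lower and 26.8% higher at an adjusted p below 0.05, and the marker counts here stand beside that share. ALB went from 4921 to 3219 RPKM in the mean (log2 fold change -0.61), TTR from 100.7 to 66.1 RPKM (-0.61) and AFP, the fetal marker, from 2215 to 3415 RPKM (0.62). The other higher markers were HNF4A (0.23) and FGB (0.17). The other lower markers were GPC3 (-0.24), APOA1 (-0.13), APOB (-0.46) and SERPINA1 (-0.46). The 9 markers had summed levels of 10180 to 10410 RPKM in control and 9396 to 9578 in PELP1-KD. RPKM are reads per kilobase of exon and per 1000000 reads of the scaled library. Of the 7 bile duct markers 5 were higher, led by KRT19, and their sum was 417 to 435 RPKM in control and 670 to 717 RPKM in PELP1-KD. Stellate and fibroblast markers summed to 10.3 to 11.2 RPKM in control and 17.3 to 17.6 in PELP1-KD, with LUM and COL1A2 the most abundant. Of the 5 tested, 3 were higher and 1 lower, which was PDGFRB, from 0.80 to 0.18 RPKM in the mean (-2.13). The blood and macrophage markers, with MS4A1 and HBB at 0, summed to 25.1 to 28.2 RPKM in control and 33.5 to 36.0 in PELP1-KD. Of these the tested CD68 was higher, from 23.7 to 33.0 RPKM in the mean, and the tested CD14 lower, from 3.10 to 1.57 RPKM. Endothelial markers stayed at or below 0.51 RPKM in sum, with CDH5, KDR and STAB2 at 0. The part of these marker changes in the results below was not tested, and in bulk RNA fewer cells of a type and less RNA per cell cannot be told apart.

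Of the 38 members 30 had enough reads to be tested. In PELP1-KD 11 of them were lower and 8 higher at an adjusted p below 0.05 (edgeR's quasi-likelihood test), and 11 did not pass. Over all 14537 genes tested, 53.6% passed, 26.8% in each direction (26.8% lower, 26.8% higher), so the members' count is near that of genes in general. The median log2 fold change of the tested members was -0.02, and that of all tested genes 0.00442. With a change of at least 2-fold asked as well, 5 members were lower (ADH1A, ADH1B, ADH4, ADH6 and ALDH4A1), where 4.79% of all genes were, and 1 was higher (AKR1B10), where 2.85% were. The counts by family include every tested member. Of 7 tested alcohol dehydrogenases 4 fell and none rose (median -1.35), of 14 aldehyde dehydrogenases 5 fell and 5 rose (median 0.07), and of 9 aldo-keto reductases 2 fell and 3 rose (median 0.08). ADH1A and ADH1B had 2 to 7 and 3 to 7 reads in PELP1-KD. They met the read filter through control alone, so they could be called only as lower. The count and median given for the alcohol dehydrogenases rest in part on these genes. With at least 10 reads asked in every library both dropped out. The members lower by 2-fold then came to 3, and ADH4 and ADH6 stayed lower. In 20 members the scaled values of the groups did not overlap, 12 with control above and 8 with PELP1-KD above, against 58.8% of all genes without overlap. Those with control above include ADH1A, ADH1B and AKR1C3, which also met the filter through control alone. Among the 19 called members 11 changed by less than 0.5 on the log2 scale.

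**Figure D1:**
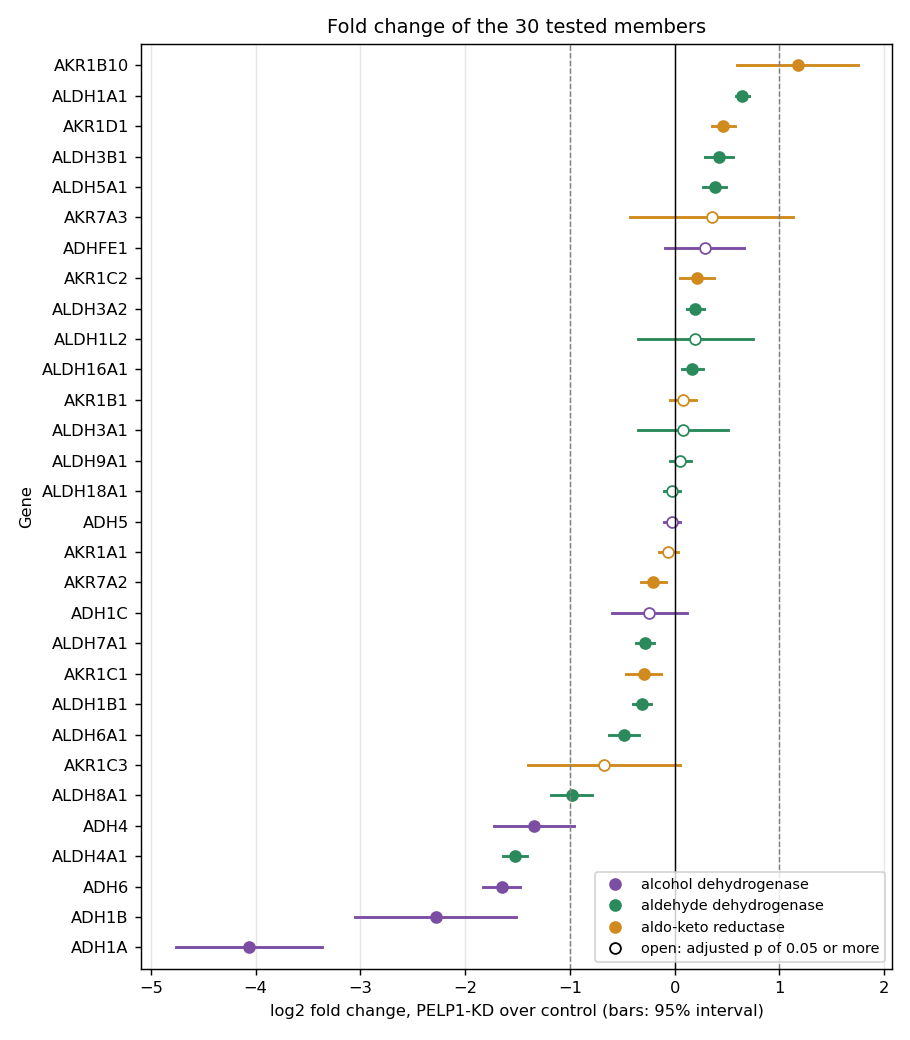
Log2 fold change of PELP1-KD over control for the 30 tested members, with 95% intervals, coloured by family; filled points passed an adjusted p of 0.05 in edgeR and dashed lines mark 2-fold. Alcohol dehydrogenases hold 4 of the 5 lowest points, from -4.07 for ADH1A to -1.35 for ADH4, and AKR1B10, at 1.18, is the highest. ADH1A, ADH1B and AKR1C3 met the read filter through control alone.

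Levels among the members spanned a wide range. By mean RPKM 24 members reached 1 RPKM in at least 1 group and 14 reached 10. ALDH1A1, cytosolic retinaldehyde dehydrogenase, was the most abundant by far, followed by ADH5, AKR1A1, ALDH18A1, ALDH3A2 and AKR7A2. The 8 members that were not tested had few or no reads. ADH7 and ALDH1A3 had 0 reads in all 6 libraries, which does not exclude a very low level, and AKR1E2 and ALDH3B2 had a single read in 1 library. AKR1B15 had 1 read over the control libraries and 4 over the PELP1-KD libraries, AKR1C4 18 and 9, ALDH1A2 29 and 26, and ALDH1L1 14 and 3. Among the ALDH1A genes, then, ALDH1A1 was the one read in quantity, while ALDH1A2 lay below 0.1 RPKM and ALDH1A3 was not detected at this depth.

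**Figure D2:**
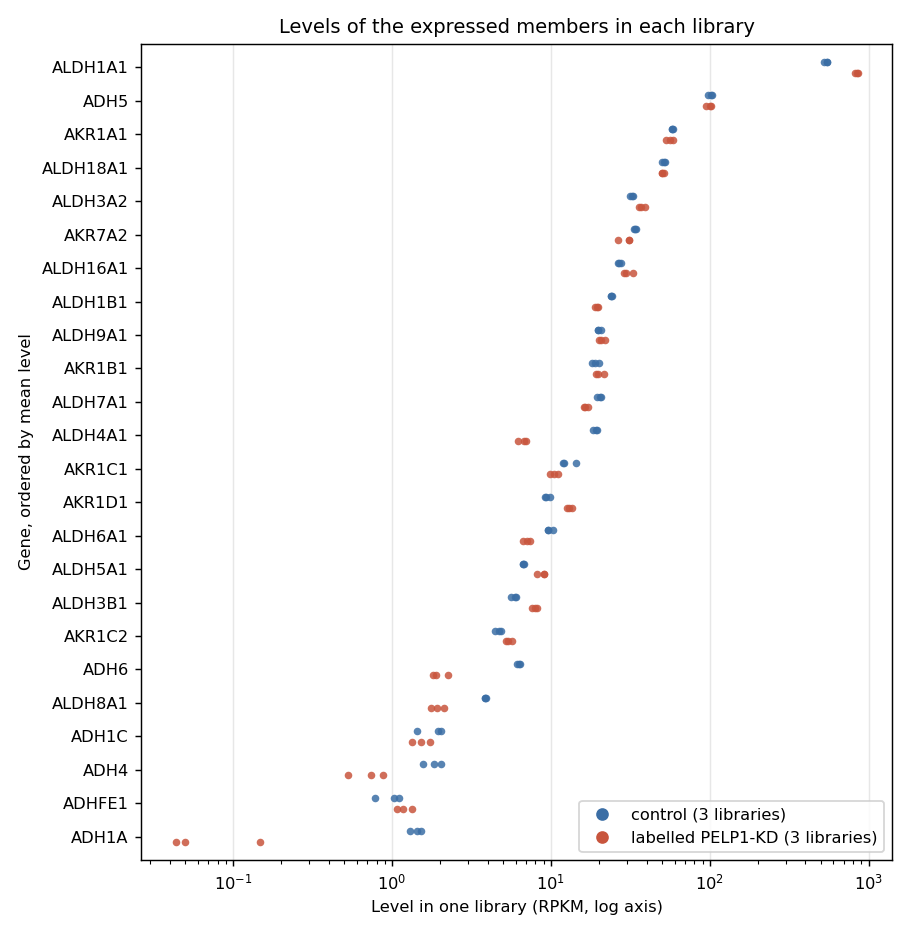
Level of each of the 24 members that reached 1 RPKM in a group, in each library (RPKM, log axis), with control points above PELP1-KD points in each row. ALDH1A1 stands alone near 539 RPKM in control and 845 in PELP1-KD, whereas ADH6, ALDH4A1, ADH4 and ADH1A show PELP1-KD points clearly to the left of control.

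The alcohol dehydrogenases other than ADHFE1 lie in a row on the minus strand of chromosome 4, in the order ADH5, ADH4, ADH6, ADH1A, ADH1B, ADH1C and ADH7 along the hg19 coordinates. The stretches before their transcription starts are shown because these neighbours differed so much in response, together with that of ALDH1A1. Each is the 120 bases before the start on the gene's own strand, from RefSeq's promoter table on GRCh38.p14, and capitals mark every match to the motifs searched on both strands, which were the E-box CACGTG, the TATA box TATAAA, the CCAAT box CCAAT, the aryl hydrocarbon receptor core GCGTG and the antioxidant response element TGACNNNGC. The closing GC of the antioxidant element can be the start of a GCGTG, and the E-box reads the same on both strands.
ADH1A chr4:99290986-99291105 (-): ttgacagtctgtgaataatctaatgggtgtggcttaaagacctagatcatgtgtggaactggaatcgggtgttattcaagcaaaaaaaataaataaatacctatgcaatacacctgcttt
ADH1B chr4:99321402-99321521 (-): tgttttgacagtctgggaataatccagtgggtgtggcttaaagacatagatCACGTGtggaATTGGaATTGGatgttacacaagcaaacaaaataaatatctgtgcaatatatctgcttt
ADH1C chr4:99352747-99352866 (-): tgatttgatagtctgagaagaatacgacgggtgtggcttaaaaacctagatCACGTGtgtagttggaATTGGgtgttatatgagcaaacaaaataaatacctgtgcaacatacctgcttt
ADH4 chr4:99144298-99144417 (-): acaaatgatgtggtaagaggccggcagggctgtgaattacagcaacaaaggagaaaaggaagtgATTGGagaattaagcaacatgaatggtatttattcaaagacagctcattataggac
ADH6 chr4:99219247-99219366 (-): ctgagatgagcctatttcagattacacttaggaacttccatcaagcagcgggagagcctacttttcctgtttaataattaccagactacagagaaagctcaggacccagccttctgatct
ADH5 chr4:99088789-99088908 (-): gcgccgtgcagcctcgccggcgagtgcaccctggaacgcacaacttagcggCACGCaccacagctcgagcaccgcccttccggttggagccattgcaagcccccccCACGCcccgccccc
ALDH1A1 chr9:72953054-72953173 (-): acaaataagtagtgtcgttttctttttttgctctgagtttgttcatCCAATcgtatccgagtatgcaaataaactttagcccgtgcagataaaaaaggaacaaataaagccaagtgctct

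Within these 120 bases ADH1B and ADH1C share an E-box at base -69, counted back from the start, and a CCAAT box at -53, and ADH1B has a second CCAAT box at -59. The printed ADH1A bases hold no match. ADH4 has a CCAAT box at -56, ADH6 no match, ADH5 an aryl hydrocarbon receptor core at -69 and at -14, and ALDH1A1 a CCAAT box at -74. Over the longer stretch of 250 bases before the start, ADH1A also holds a CCAAT box and ADH4 a TATA box, ADH6 still holds none of the motifs, and ADH1A is 81.4% identical to ADH1B and 80.7% to ADH1C. Among 35116 promoters of the table, taken over the same 250 bases, 6.34% hold the E-box, 10.7% the TATA box, 32.0% the CCAAT box, 32.2% the aryl hydrocarbon receptor core and 10.9% the antioxidant element. Of the 38 members 31 matched the table, with 41 promoters, of which 5, 5, 19, 12 and 2 hold these motifs in the same order. Each start of a gene counts as a promoter, so these are not counts of genes. Both promoters with the antioxidant element are starts of AKR7A2 that lie close together. AKR7A2, AKR1B1 and AKR1E2 each give 2 of the promoters with the aryl hydrocarbon receptor core. In base composition ADH5 stands apart from its neighbours. Its 250 bases held 58.0% G and C and 21 CpG, and those of ADH1A, ADH1B, ADH1C, ADH4 and ADH6 31.6%, 32.4%, 35.6%, 34.0% and 36.4%, where the median of all promoters was 58.0% and 11 CpG.

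ADH6, the class V enzyme, lies at chr4:100123795-100140403 and had 652, 628 and 606 reads in control and 209, 154 and 172 in PELP1-KD. The groups lay far apart, and the level fell from 6.27 ± 0.13 to 2.00 ± 0.24 RPKM (SD, n = 3), a log2 fold change of -1.65 (SE 0.08, edgeR adjusted p = 2.9e-12). ADH4, the class II enzyme that oxidizes ethanol at high concentration and also retinol, lies at chr4:100044833-100065449. It had 138, 101 and 120 reads in control and 45, 47 and 33 in PELP1-KD, a log2 fold change of -1.35 (SE 0.18, edgeR adjusted p = 3.77e-06). Every PELP1-KD library of both genes was below every control library.

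The 3 class I genes encode the alpha, beta and gamma chains of the classical liver alcohol dehydrogenase. ADH1A had 67, 71 and 75 reads in control and 2, 2 and 7 in PELP1-KD, so that the scaled mean was 5.66% of control (log2 fold change -4.07, SE 0.33, edgeR adjusted p = 3.62e-09). ADH1B was scarcer, with 36, 26 and 27 reads in control and 3, 6 and 7 in PELP1-KD (-2.28, SE 0.37, adjusted p = 3.06e-05). Both were lower in every PELP1-KD library, on few reads, and without PELP1-KD replicate 3, which holds 7 of the ADH1A reads, the log2 fold change of ADH1A was -4.86. ADH1C, the next gene along, had 98, 98 and 70 reads in control and 60, 69 and 71 in PELP1-KD, and its groups overlapped (-0.24, 95% interval -0.60 to 0.12, edgeR adjusted p = 0.248). The intervals of ADH1A and ADH1C do not meet, but ADH1A met the read filter through control alone. A difference between these genes was not tested. These genes share part of their sequence. Of the 50-base windows of their exons, 17.8% in ADH1A, 10.6% in ADH1B and 14.3% in ADH1C occur in another gene on either strand. For ADH1A, 109 of the 188 such windows occur in ADH1B. Windows of ADH1A also recur in LOC100507053, a transcript that overlaps it on the opposite strand. The authors' counting split reads that mapped to several places. It was by strand, so that overlap alone did not split reads. Summed to 1 unit the 3 genes fell by 1.15 on the log2 scale (SE 0.13, edgeR adjusted p = 4.31e-07).

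ADH5, the class III enzyme that oxidizes the formaldehyde adduct of glutathione and is found in nearly all tissues, had 9277, 8891 and 8478 reads in control and 8264, 7125 and 7914 in PELP1-KD. Its level was 101 ± 2.96 RPKM in control and 99.0 ± 3.47 in PELP1-KD, with groups that overlap on that scale and a log2 fold change of -0.03 (95% interval -0.10 to 0.05). In the control cells ADH5 was thus 16.1 ± 0.14 times ADH6 in RPKM, and in the PELP1-KD cells 50.0 ± 4.33 times. ADHFE1, an iron-type enzyme of hydroxyacids that sits on another chromosome, had 51 to 69 reads in control and 64 to 68 in PELP1-KD (0.29, edgeR adjusted p = 0.188).

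**Figure D3:**
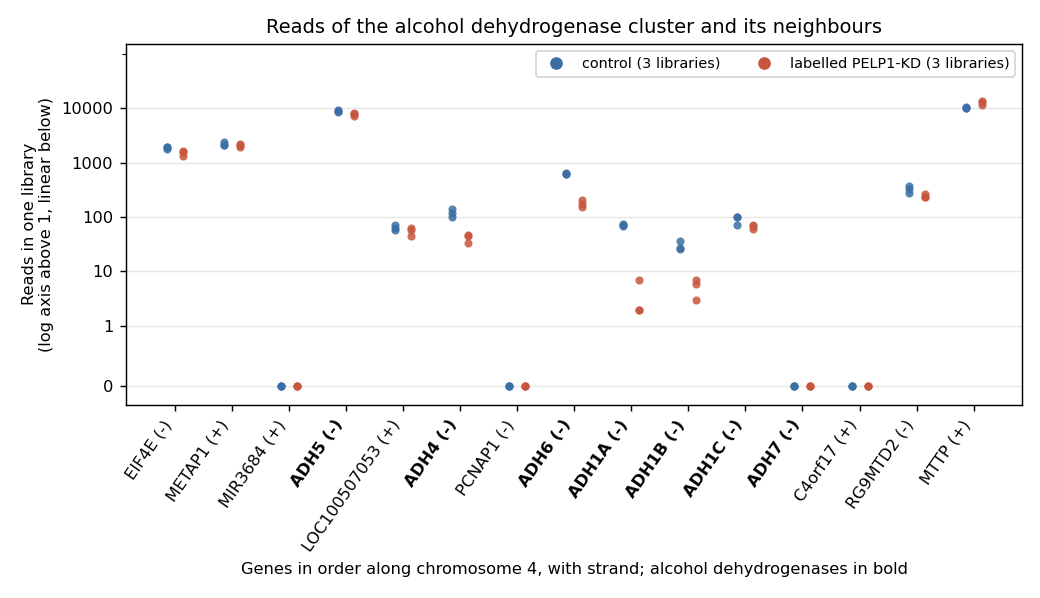
Reads in each library for the alcohol dehydrogenase genes on chromosome 4 (bold) and the genes that flank or lie among them, in chromosomal order with strand (vertical axis logarithmic above 1 read). ADH4, ADH6, ADH1A and ADH1B drop in PELP1-KD between ADH5 and ADH1C, whose groups overlap once scaled to library size, and MTTP at the far end is higher in PELP1-KD.

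The flanking genes moved in different ways. EIF4E, a cap-binding translation factor on the ADH5 side, was lower by a small amount (-0.17, edgeR adjusted p = 0.00403), METAP1 next to it was not called (0.08), and on the ADH7 side RG9MTD2 was not called (-0.23) and MTTP, the microsomal triglyceride transfer protein, was higher (0.48, edgeR adjusted p = 2.66e-10). LOC100507053, a transcript of the opposite strand that spans the cluster, had 58 to 71 reads in control and 45 to 63 in PELP1-KD (-0.05). It overlaps 151 exon bases of ADH1A, and counting was by strand.

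Among the aldehyde dehydrogenases ALDH1A1 and ALDH4A1 carried the largest read difference and the largest fold change. ALDH1A1, which oxidizes retinaldehyde to retinoic acid, lies at chr9:75515578-75568233 and had 44488, 42603 and 40751 reads in control and 62561, 54228 and 61403 in PELP1-KD. All PELP1-KD libraries were above all control libraries, even before scaling to their smaller size, and the level rose from 539 ± 15.0 to 845 ± 18.8 RPKM (log2 fold change 0.65, SE 0.03, edgeR adjusted p = 4.68e-13). It took 50.0% ± 0.63 of all reads of the 38 members in control and 62.3% ± 0.50 in PELP1-KD. Among all genes of a library it ranked 109th to 117th by RPKM in control and 54th to 61st in PELP1-KD. The summed level of the members rose with it, from 1013 ± 16.7 to 1293 ± 19.6 RPKM, while without ALDH1A1 the sum was 474 ± 2.78 in control and 448 ± 5.90 in PELP1-KD.

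ALDH1B1 and ALDH8A1 went the opposite way. ALDH1B1, a mitochondrial enzyme that oxidizes acetaldehyde and retinaldehyde, fell from 23.9 ± 0.14 to 19.3 ± 0.36 RPKM (-0.31, edgeR adjusted p = 3.52e-06). ALDH8A1, an enzyme of the kynurenine pathway of tryptophan breakdown, had 338, 321 and 327 reads in control and 139, 133 and 172 in PELP1-KD, which is 50.5% of control after scaling and just short of 2-fold (-0.98, SE 0.09, edgeR adjusted p = 3.58e-08). ALDH1A1 was 22.5 ± 0.61 times ALDH1B1 in control and 43.7 ± 1.22 times in PELP1-KD.

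ALDH4A1, the mitochondrial enzyme that completes proline breakdown by turning pyrroline carboxylate into glutamate, lies at chr1:19197924-19229293 and shares 7 exon bases with MIR4695. It had 2367, 2163 and 2316 reads in control and 686, 650 and 783 in PELP1-KD. The groups were far apart, at 19.1 ± 0.62 and 6.64 ± 0.36 RPKM, and its fold change had the smallest adjusted p of all members (log2 -1.52, SE 0.05, edgeR adjusted p = 6.76e-15). ALDH18A1 acts in the other direction, from glutamate to pyrroline carboxylate, and had 6107, 5934 and 5738 reads in control and 5327, 4825 and 5420 in PELP1-KD. Its level was 51.3 ± 0.99 and 50.5 ± 1.06 RPKM, with groups that overlap once scaled and a 95% interval of -0.10 to 0.05 on the log2 scale. The ratio of the synthetic to the catabolic enzyme was 2.69 ± 0.14 in control and 7.62 ± 0.44 in PELP1-KD. This ratio and the others given between members were chosen after the values had been seen and are descriptions without a test.

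**Figure D4:**
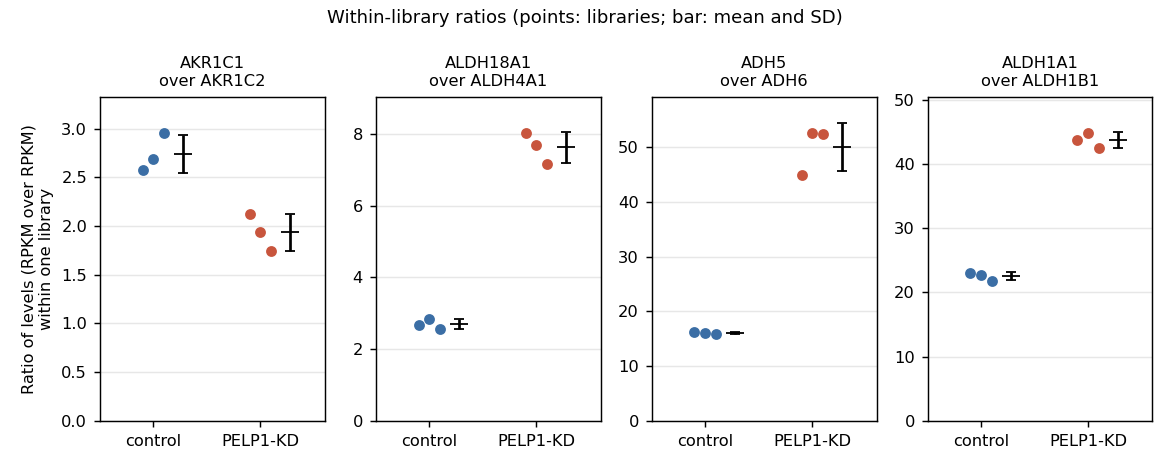
Ratios of the RPKM of pairs of members within each library, with the mean and SD of the 3 libraries of a group at the right of the points; each axis starts at 0. None of the 4 ratios overlaps between the groups, and the largest shift is that of ADH5 over ADH6, from 16.1 to 50.0.

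Of the remaining enzymes of amino acid and GABA breakdown, ALDH6A1 of valine breakdown fell (-0.48, edgeR adjusted p = 5.52e-06), as did ALDH7A1 of lysine breakdown (-0.28, adjusted p = 1.02e-05). ALDH6A1 overlaps C14orf45 on the opposite strand over 279 exon bases. ALDH5A1, succinic semialdehyde dehydrogenase, which ends the breakdown of GABA, rose from 6.72 ± 0.06 to 8.79 ± 0.51 RPKM (0.38, edgeR adjusted p = 3.7e-06). ALDH9A1, an enzyme of carnitine synthesis and aminoaldehydes, did not pass (0.05, 95% interval -0.05 to 0.15).

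In family 3 ALDH3A2, the fatty aldehyde dehydrogenase, had 4308, 3972 and 4100 reads in control and 4307, 4012 and 4311 in PELP1-KD. The raw reads look alike, and the call rests on the smaller PELP1-KD libraries: scaled, the level was 32.3 ± 0.61 against 37.1 ± 1.61 RPKM (0.20, SE 0.04, edgeR adjusted p = 0.00035). ALDH3B1, which also takes lipid aldehydes, was higher (0.43, edgeR adjusted p = 1.11e-05), and ALDH3A1 was not called, with 42 to 45 reads in control and 36 to 44 in PELP1-KD (0.08). ALDH16A1 was slightly higher (0.17, edgeR adjusted p = 0.00584, and 0.11 with adjusted p = 0.0217 without PELP1-KD replicate 3). ALDH1L2, the mitochondrial formyltetrahydrofolate dehydrogenase, had 35 to 51 reads in control and 23 to 66 in PELP1-KD and was not called (0.20).

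Among the aldo-keto reductases the abundant housekeeping members barely differed. AKR1A1, aldehyde reductase, had 3114, 3054 and 3018 reads in control and 2583, 2380 and 2896 in PELP1-KD, or 58.1 ± 0.74 and 55.8 ± 2.50 RPKM, with overlapping groups on that scale (-0.06, 95% interval -0.15 to 0.03). AKR1B1, the aldose reductase that makes sorbitol from glucose, was at 19.1 ± 1.00 and 20.2 ± 1.12 RPKM (0.08, 95% interval -0.04 to 0.21). AKR7A2, which reduces succinic semialdehyde and aflatoxin dialdehyde, had 1602, 1491 and 1520 reads in control and 1100, 1139 and 1327 in PELP1-KD. It was modestly lower without overlap (-0.20, SE 0.06, edgeR adjusted p = 0.00623), and without PELP1-KD replicate 1 the difference was -0.13 (adjusted p = 0.0465). AKR7A3 had 11 to 14 and 10 to 19 reads and was not called (0.35).

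AKR1B10, a retinaldehyde and lipid aldehyde reductase that is often raised in liver cancer, was the only member higher by 2-fold, on few reads. It had 14, 21 and 13 reads in control and 31, 31 and 35 in PELP1-KD (log2 fold change 1.18, SE 0.28, edgeR adjusted p = 0.00135). Its level, 0.30 ± 0.09 and 0.68 ± 0.05 RPKM, stayed far below that of AKR1B1. It shares 12.8% of its 50-base exon windows with other genes, mainly its neighbour AKR1B15, and the sum of the pair rose likewise (1.20, edgeR adjusted p = 0.00108).

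AKR1C1 and AKR1C2 encode closely related reductases of progesterone and of dihydrotestosterone. Among their coding exons of equal length, the one with the most differences is shown, since such bases tell their reads apart. The sequences are exon 2 of AKR1C1 and the matching exon of AKR1C2 on GRCh37, each on its gene's strand, with the 10 differing bases in capitals.
AKR1C1 chr10:5008106-5008273 (+): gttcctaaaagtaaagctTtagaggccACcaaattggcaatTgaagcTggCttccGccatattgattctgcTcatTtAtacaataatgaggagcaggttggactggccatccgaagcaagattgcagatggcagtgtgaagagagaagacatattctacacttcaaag
AKR1C2 chr10:5043706-5043873 (-): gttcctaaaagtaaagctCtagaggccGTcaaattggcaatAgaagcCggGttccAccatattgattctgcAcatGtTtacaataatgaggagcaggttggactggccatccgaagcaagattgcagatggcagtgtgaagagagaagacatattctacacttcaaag

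Over the 7 coding exons of equal length, 845 bases, the pair differ at 18 bases (97.9% identity), with 0 to 3 differences in each exon other than exon 2, and their promoters over 250 bases are 96.5% identical. Of the 50-base windows of AKR1C1 53.1% recur in another gene (498 windows, 483 of them in AKR1C2), and of those of AKR1C2 34.3% recur. AKR1C1 had 572, 541 and 656 reads in control and 466, 386 and 431 in PELP1-KD (-0.30, SE 0.08, edgeR adjusted p = 0.00395). AKR1C2 had 344, 312 and 344 reads in control and 341, 309 and 383 in PELP1-KD (0.21, SE 0.08, edgeR adjusted p = 0.0282). The genes were thus called in opposite directions, and the ratio of AKR1C1 to AKR1C2 in RPKM was 2.74 ± 0.19 in control and 1.94 ± 0.19 in PELP1-KD. The call of AKR1C2 was lost with DESeq2 (adjusted p = 0.083) and when control library 1 or 2 or PELP1-KD library 2 or 3 was left out (edgeR adjusted p = 0.0634, 0.109, 0.0573 and 0.0955). Summed to 1 unit the pair did not pass (-0.09, SE 0.06, edgeR adjusted p = 0.229).

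AKR1C3, which reduces androstenedione and prostaglandins, had 18, 19 and 17 reads in control and 8, 8 and 14 in PELP1-KD. It did not pass (-0.68, 95% interval -1.40 to 0.05, edgeR adjusted p = 0.108). Its groups did not overlap, but on few reads, and it met the read filter through control alone, as ADH1A and ADH1B did. AKR1D1, the steroid reductase of bile acid synthesis, had 864, 879 and 823 reads in control and 1121, 955 and 1081 in PELP1-KD. Every PELP1-KD library was higher, and the level rose from 9.47 ± 0.37 to 13.1 ± 0.40 RPKM (0.47, SE 0.05, edgeR adjusted p = 5.3e-07).

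The pathways that hold these enzymes were followed through lists of other genes. In ethanol and acetaldehyde oxidation 1 of 5 tested genes was lower and 2 were higher (median 0.13), against 26.8% of all genes in each direction. CAT, catalase, fell from 75.5 ± 1.70 to 56.5 ± 1.51 RPKM (-0.42, edgeR adjusted p = 1.53e-08), and ACSS2, which activates acetate, rose (0.52, adjusted p = 2.42e-09). ALDH2, the mitochondrial acetaldehyde dehydrogenase, rose by little, from 112 ± 1.30 to 122 ± 4.02 RPKM (0.13, edgeR adjusted p = 0.00553), without overlap of the groups.

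Of 19 tested genes of retinoid metabolism and signaling 4 were lower and 6 higher (median 0.03), against 26.8% of all genes in each direction. CYP26A1, which degrades retinoic acid, had 152, 148 and 157 reads in control and 521, 452 and 553 in PELP1-KD (1.90, edgeR adjusted p = 1.58e-13), and DHRS3, a retinaldehyde reductase, was higher (0.43, adjusted p = 3.19e-06). CYP26B1, a second retinoic acid hydroxylase, fell to 49.3% of control (-1.02, edgeR adjusted p = 1.33e-10), and STRA6, the membrane receptor for retinol-binding protein, fell on few reads (-2.86, adjusted p = 3e-09).

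Of 20 enzymes of proline, GABA, lysine and valine metabolism 11 were lower and 2 higher (median -0.12), against 26.8% of all genes in each direction. PYCR1, the last enzyme of proline synthesis, fell (-0.64, edgeR adjusted p = 1.19e-09), and so did ABAT, GABA transaminase (-0.97, adjusted p = 1.12e-12). PRODH, the first enzyme of proline breakdown, rose (0.55, edgeR adjusted p = 1.71e-05), as did GAD1, which makes GABA (0.50, adjusted p = 0.000464). PRODH2, the hydroxyproline dehydrogenase whose product also passes through ALDH4A1, was chosen after its values were seen. It had 56, 55 and 58 reads in control and 4, 5 and 3 in PELP1-KD. The level went from 1.01 ± 0.04 to 0.08 ± 0.03 RPKM, a log2 fold change of -3.61. PRODH2 met the read filter through control alone, so it could be called only as lower, and it is 1 of the 11 lower enzymes. Of 18 folate one-carbon enzymes 11 were lower and 1 higher (median -0.23), with FTCD of histidine breakdown at -1.11 (edgeR adjusted p = 8.99e-09), mitochondrial MTHFD2 at -0.48 (adjusted p = 5.62e-08) and AMT of the glycine cleavage system at 0.26 (adjusted p = 0.00019).

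Of 18 bile acid and steroid enzymes 6 were lower and 3 higher (median -0.03), against 26.8% of all genes in each direction. HSD11B2, which inactivates cortisol, fell from 11.2 ± 0.71 to 2.70 ± 0.09 RPKM (-2.05, edgeR adjusted p = 5.71e-14), and CYP7B1, the oxysterol hydroxylase, fell on few reads (-1.65, adjusted p = 4.29e-05). ACOX2 (0.76, edgeR adjusted p = 8.22e-07), which shortens the side chain of bile acid precursors, and HSD17B2 (0.44, adjusted p = 9.82e-07), which oxidizes estradiol, were higher along with AKR1D1. Of 12 carbonyl and quinone reductases outside these families 4 were lower and 4 higher (median 0.03), against the same 26.8% in each direction. SORD, which follows AKR1B1 in the polyol pathway, was lower (-0.29, edgeR adjusted p = 4.96e-06), as was DCXR, a xylulose reductase (-0.25, adjusted p = 0.00043). PTGR1, which reduces enal substrates, rose from 90.4 ± 1.16 to 199 ± 4.99 RPKM (1.14, edgeR adjusted p = 1.05e-15), and DHRS7 rose by 0.55 (adjusted p = 2.43e-10).

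Several aldo-keto reductases and aldehyde dehydrogenases are known targets of NRF2 or of the aryl hydrocarbon receptor, so other targets of these factors were counted. Of 21 NRF2 target genes 6 were lower and 12 higher (median 0.20), where 26.8% of all genes were called in each direction. HMOX1, heme oxygenase, rose (0.67, edgeR adjusted p = 1.09e-10), as did TXN, thioredoxin (0.35, adjusted p = 4.83e-08). The cystine transporter SLC7A11 was lower (-0.35, edgeR adjusted p = 0.000767). Of 6 targets of the aryl hydrocarbon receptor 5 were higher and 1 lower (median 0.51). CYP1B1 rose from 0.73 ± 0.03 to 7.57 ± 0.29 RPKM (3.38, edgeR adjusted p = 4.69e-18) and CYP1A1 from 35.3 ± 0.48 to 147 ± 2.46 RPKM (2.05, adjusted p = 7.5e-20), while AHRR, the repressor of the receptor, was slightly lower (-0.23, adjusted p = 0.0388), a call lost without control replicate 3 (-0.10, adjusted p = 0.324) or PELP1-KD replicate 1 or 2 and with DESeq2 (adjusted p = 0.0595). ALDH3A1, a member known as a target of this receptor, was not called, as given above.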

How the data were processed

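Per the labels, total RNA was sequenced after TRIzol extraction and ribosomal depletion with paired ends. The design text gives instead a column kit, stranded mRNA libraries and single reads of 50 bases, and the difference was not resolved. The authors deposited estimated counts per gene, 1 table per library, not normalized. The file headers give featureCounts 1.5.0-p1 on hg19 exons, by strand, with mapping quality of at least 2 and multi-mapping and overlapping reads kept as fractions, so 10.6% to 13.3% of values were not whole. Submitters' processing notes list HISAT2 (the study's methods name another aligner and counter).

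Members and lists were chosen with earlier results of these data known. Estimated counts were rounded. Genes were filtered with filterByExpr (14537 of 23228 tested), scaled by TMM and fitted with edgeR 4.0.16 in R 4.3.3 (robust glmQLFit, glmQLFTest, group only), with Benjamini-Hochberg adjustment over all tested genes, called below 0.05, and at 2-fold where stated. RPKM used TMM-scaled library sizes. Members with at least 100 scaled reads that changed 2-fold, and the 6 highest in RPKM, are given by library, as are others where their reads are few or near-identical copies exist; of each list the 2 called genes with the smallest p in each direction are named, except 1 gene that is not reported here. Same-numbered libraries deviated together (correlations 0.336, 0.247 and 0.666 over 6370 genes), though control 2 with PELP1-KD 1 (0.418) and control 1 with PELP1-KD 2 (0.244) did so as much, so that only number 3 stands apart. The replicate number was also fitted as a block. DESeq2 1.42.0, other scalings, filters, thresholds, summed copies and left-out libraries were the other alternatives. The fits were tested on simulated data.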

Additional observations from a re-analysis of the deposited data

How the results depend on the processing

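Of the 19 called members 18 kept their call and direction in each of the 15 alternatives other than the test against 2-fold, where they could be fitted; AKR1C2 is the exception. With at least 10 reads asked in every library, the members lower by 2-fold came to 3 and the median log2 fold change to 0.048, since ADH1A, ADH1B and AKR1C3 then drop out. Tested against a 2-fold change (glmTreat), 0 members were higher and 4 lower, since ADH4 (adjusted p = 0.206) and AKR1B10 (adjusted p = 1) then fail. Without 1 library at a time, 11 members were lower, 7 to 8 higher, 5 to 6 lower by 2-fold and 1 higher by 2-fold, with a median of -0.0456 to 0.0034. Over the same fits 3 members that were not called turned in sign, with ALDH1L2 between -0.10 and 0.47, ALDH3A1 between -0.042 and 0.21 and ADH5 between -0.046 and 0.0034. With the replicate number as a block, 11 members were lower and 8 higher, as without it, with 5 and 1 by 2-fold and a median of -0.02; the block changed no member's call. DESeq2 gave 11 lower and 7 higher. Low reads limit ADH1A, ADH1B, AKR1B10, AKR1C3 and AKR7A3 most.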
